A study of Homo sapiens with 6 samples.

Results

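The genes described here are 10 cell-surface proteins through which tumour cells are read by T cells, natural killer (NK) cells and macrophages: the checkpoint ligands CD274 (PD-L1) and CD276 (B7-H3), the phagocytosis inhibitor CD47, the ectonucleotidase NT5E (CD73), the nectin-like ligand PVR (CD155), and the ligands MICA, MICB, ULBP1, ULBP2 and ULBP3 of the activating receptor NKG2D. They were chosen by name, with earlier results of these data known. All 10 were found among the 20461 genes of the expression table and passed the filter on low counts. PANC1, an established human pancreatic ductal carcinoma cell line, was profiled by RNA-seq in 2 libraries from cells given vehicle (0.1% DMSO) and 2 libraries from cells given 50 nM gemcitabine, a deoxycytidine analogue that stalls DNA replication. Cells were grown for 24 h and then treated for 48 h. DNaseI hypersensitivity, which marks open chromatin, was profiled in 1 library per condition. All of the libraries came from a single cell line in culture, without immune cells, so only the tumour-cell side of each interaction was measured, and only as RNA.

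As background, a T cell that meets PD-L1 through its receptor PD-1 is held back, and an NK cell or macrophage weighs inhibitory against activating surface signals in the same way. CD47 binds SIRP-alpha on macrophages and blocks engulfment, while CD73 completes the conversion of extracellular ATP to adenosine, which dampens T and NK cells. The NKG2D ligands are relatives of MHC class I that are scarce on most healthy cells, are induced by cellular stress including DNA damage, and mark the cell for killing. Their surface amount also depends on shedding by proteases, which RNA does not report.

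The 4 RNA libraries held 13194533 to 15766237 fragments assigned to genes, so that 3 fragments corresponded to 0.190 to 0.227 CPM (counts scaled to library size). Gemcitabine and vehicle were compared on estimated fragment counts by edgeR's quasi-likelihood test over 14854 genes, with Benjamini-Hochberg adjustment. To be called, a gene had to reach an adjusted p under 0.05, a fold over 1.5, a mean of at least 0.1 FPKM (fragments scaled to transcript length and library size) in 1 condition and a difference of at least 1 between the mean FPKM values. This rule called 5.69% of the tested genes higher and 4.43% lower with gemcitabine, 10.1% in all. Leukocyte markers were largely missing: 8 of 9 had at most 9 fragments in every library, with CD3E at 0 throughout and the 8 summing to 5 to 15 fragments per library, while the ninth, the lysosomal protein CD68, had 133 and 154 fragments with vehicle and 238 and 269 with gemcitabine. Sums over lists are given on library totals, without the scaling for library composition used for the single genes. The summed level of the 20 listed immune receptors and leukocyte markers, CD68 included, was 16.6 to 18.8 CPM with vehicle and 31.2 to 31.5 CPM with gemcitabine. CD68 had the most fragments of this list in every library, followed by HAVCR2 with 50.0 to 64.9. The part of this list in the results was not tested. Of the 7 carcinoma markers, KRT7 and KRT8 had at least 10674 fragments in every library and KRT18, VIM and MUC1 at least 1680, while EPCAM had 80 and 57 with vehicle and 48 and 45 with gemcitabine and KRT19 had 45 to 94. Of the fibroblast and endothelial markers, COL1A1 had at least 56723 fragments in every library, LUM 67 to 116, DCN 24 to 39 and the endothelial VWF 8 to 34, and COL1A2 and CDH5 had at most 3. The summed level of that list, also on library totals, was 3982 to 4103 CPM with vehicle and 4312 to 4625 CPM with gemcitabine. The factors for composition, 0.959 and 0.966 with vehicle and 1.052 and 1.026 with gemcitabine, lower the gemcitabine sums relative to vehicle. With that scaling COL1A1, the largest gene of the list, stood at 0.03 on the log2 scale (edgeR, adjusted p = 0.740). The part of the list in the results was not tested.

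The 10 genes ranged from weakly to strongly expressed. On the FPKM scale, which divides by transcript length and so allows genes to be compared, CD276 stood first in untreated cells at 126 ± 8.10 (SD, n = 2), above 92.4% of tested genes. PVR followed at 58.0 ± 9.09 FPKM and CD47 at 51.4 ± 7.94 FPKM, and the ranges of these neighbours overlapped. MICA was next at 26.2 ± 2.26 FPKM, then MICB at 7.56 ± 0.352 FPKM, CD274 at 5.15 ± 0.839 FPKM and ULBP3 at 4.25 ± 0.405 FPKM, each clear of the next. ULBP2 at 2.85 ± 0.0979 FPKM and NT5E at 2.83 ± 0.234 FPKM could not be ordered, and ULBP1 was last at 1.12 ± 0.00622 FPKM, above 21.7% of tested genes.

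After gemcitabine the top of the order was CD276, CD47, PVR and MICA, with no overlap between neighbours. MICB, NT5E, ULBP2 and CD274 then lay between 10.5 and 7.25 FPKM, each overlapping the next, and ULBP3 and ULBP1 remained at the bottom. NT5E, which lay below MICB, CD274 and ULBP3 in untreated cells, thus overlapped MICB after gemcitabine, and ULBP2 overlapped NT5E and CD274.

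**Figure D1:**
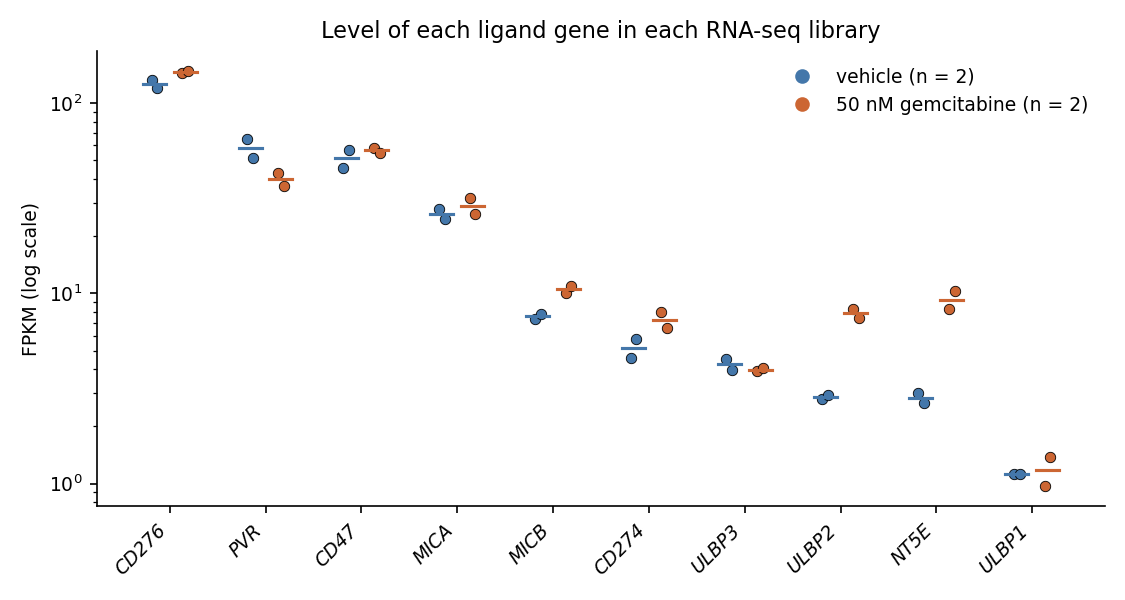
Level of each of the 10 genes in the 2 vehicle and 2 gemcitabine libraries, in FPKM on a log axis; points are libraries and bars the group means. NT5E and ULBP2 move from about 2.8 FPKM to 9.27 and 7.87 FPKM, while CD276, at 126 and 145.5 FPKM, stays above all others.

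Gemcitabine raised the RNA of 2 of the 10 genes, NT5E and ULBP2, and lowered none by the call rule. The same rule called 5.69% of all tested genes higher and 4.43% lower. The RNA of 2 further genes changed by less than 1.5-fold at an adjusted p under 0.05: MICB rose and PVR fell. These 4 of 10 genes are to be read against 38.5% of all tested genes that pass the adjusted p alone (18.5% higher and 20.0% lower). The log2 fold changes of the 10 genes had a median of 0.003, beside 0.0068 over all tested genes. In CPM the vehicle and gemcitabine ranges did not overlap for 6 of the 10, 3 higher and 3 lower, against 69.7% of all tested genes. In FPKM they did not overlap for 6, 5 higher and 1 lower, against 62.1%.

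**Figure D2:**
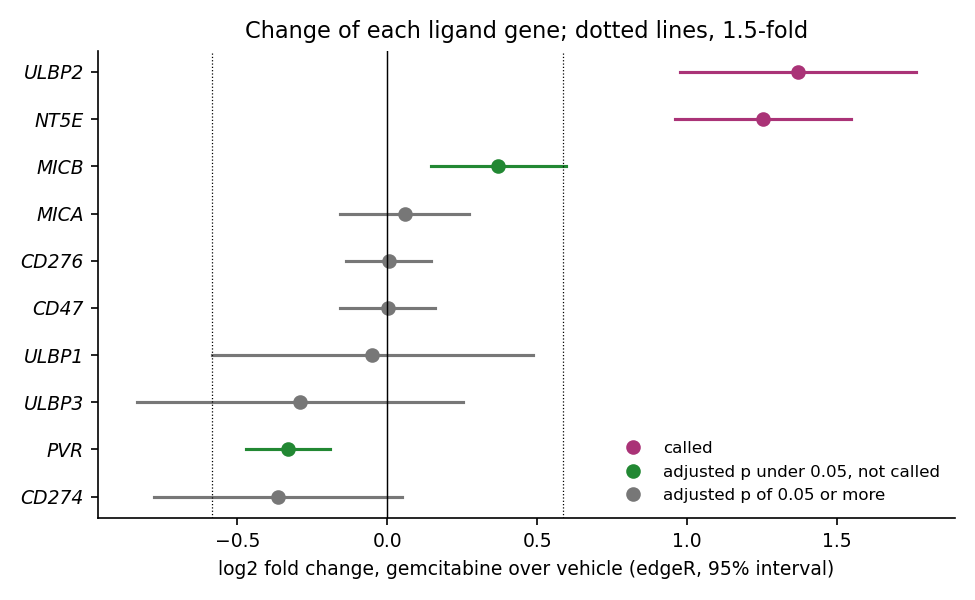
Log2 fold change of the 10 genes, gemcitabine against vehicle, from edgeR's quasi-likelihood fit on fragment counts, with 95% intervals. The intervals of NT5E (0.96 to 1.55) and ULBP2 (0.98 to 1.76) lie past the 1.5-fold line, and those of CD276 and CD47 are centred on 0.

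Of the ligands of T-cell checkpoint receptors, CD274 encodes PD-L1, the ligand of PD-1 (hg19 chr9:5450503-5470566, plus strand). It had 99 and 147 fragments with vehicle and 84 and 92 with gemcitabine. The vehicle libraries were the higher ones and did not overlap the treated ones, but they differed from each other by more than the nearer one differed from the treated libraries. The log2 fold change was -0.37 (SE 0.19, 95% interval -0.78 to 0.05, adjusted p = 0.153), which is not significant. In FPKM the order was the opposite: 4.56 and 5.75 with vehicle against 7.93 and 6.56 with gemcitabine, again without overlap, a ratio of the means of 1.41. Whether CD274 RNA was higher or lower after gemcitabine thus depended on whether fragments or FPKM were compared, and neither difference passed a test (limma on log2(FPKM + 1), adjusted p = 0.143). A negative fold in fragments with higher, non-overlapping FPKM was found in 5.38% of the 11496 genes with a mean of at least 50 fragments, a criterion set after the values of CD274 were seen.

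Apart from the scaling of libraries, the 2 scales differ by the transcript length that Cuffdiff assigns, since FPKM divides fragments by an effective length that depends on the estimated isoform mixture. Dividing the fragments in CPM by the FPKM gives this apparent length. For CD274 it was 1.43 and 1.62 kb with vehicle and 0.802 and 1.06 kb with gemcitabine, a log2 ratio of -0.72 of the means, and 0.835% of the 11496 genes had a lower ratio. Both coding transcripts of CD274 in the GENCODE release used here are longer, at 3343 and 3634 bases. The authors' Cuffdiff run used an earlier release, whose CD274 transcripts were not checked. With vehicle the mean apparent length was also below the canonical transcript for CD276 (1.58 kb of 3295 bases) and CD47 (2.00 kb of 5292 bases). For ULBP1 it was near it (3.19 kb of 3211 bases). After gemcitabine the apparent length of NT5E also fell, from 2.18 and 2.43 kb to 2.00 and 1.65 kb (log2 ratio -0.34). That of CD276 fell by far less, from 1.55 and 1.61 kb to 1.49 and 1.48 kb. That of PVR rose, from 1.88 and 2.36 kb to 2.43 and 2.83 kb (log2 ratio 0.31). Non-overlapping falls of the apparent length in 3 of the 10 genes and a rise in 1 stand beside 19.1% and 12.2% of all 11496 genes. Isoform-level estimates were not analysed here.

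**Figure D3:**
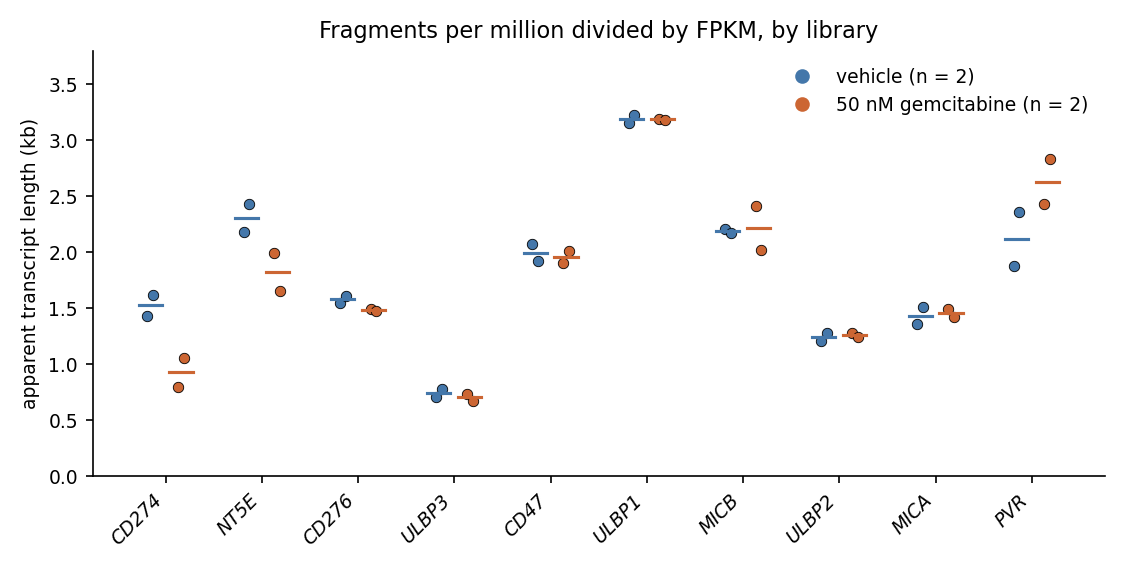
Apparent transcript length in kb (CPM on library totals divided by FPKM) of the 10 genes in each of the 4 libraries. CD274 has the lowest gemcitabine to vehicle ratio of the 10, from 1.43 and 1.62 kb to 0.802 and 1.06 kb, and 6 genes overlap between conditions.

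The sequence just before the annotated start of CD274 is shown because it carries the interferon-type element by which this promoter is known; it runs from 250 to 40 bases upstream of the canonical start (hg19 chr9:5450292-5450502, plus strand). Capitals mark a pair of overlapping matches to the interferon-stimulated response element (ISRE) pattern (GAAA, any 2 bases, GAAA), read on the minus strand, and 1 match to the Sp1 GC box GGGCGG.
CD274: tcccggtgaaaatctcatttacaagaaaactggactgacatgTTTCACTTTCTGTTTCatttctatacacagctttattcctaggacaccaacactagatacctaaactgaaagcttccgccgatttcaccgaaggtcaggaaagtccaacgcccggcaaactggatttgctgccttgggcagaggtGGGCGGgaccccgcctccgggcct
The ISRE pattern was present in 2.48% of 14154 such upstream windows of 250 bases, both strands searched, and among the 10 genes in CD274 alone. The GC box was in 69.5% of windows and in 9 of the 10 genes, all but PVR. No match to the NF-kB pattern (GGG, any 2 bases, TTTCC; 1.93% of windows), the AP-1 pattern TGANTCA (3.72%) or the CRE pattern TGACGTCA (2.86%) lay in any of the 10 windows.

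CD276 encodes B7-H3, a B7-family protein abundant on many carcinomas (chr15:73976307-74006855, plus strand). It had 3101 and 3062 fragments with vehicle and 2839 and 2877 with gemcitabine. After scaling for library composition these were 213 and 201 CPM against 205 and 211 CPM, which overlap. The log2 fold change was 0.00 (SE 0.067, 95% interval -0.14 to 0.15, adjusted p = 0.961), so a change of 1.5-fold in either direction lies outside the interval.

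CD47, the macrophage inhibitor (chr3:107761938-107810709, minus strand), behaved likewise. It had 1437 and 1725 fragments with vehicle and 1460 in each gemcitabine library, or 98.9 and 113 CPM against 105 and 107 CPM. The treated libraries fell inside the vehicle range, and the log2 fold change was 0.00 (SE 0.075, 95% interval -0.16 to 0.16, adjusted p = 0.993).

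NT5E, the enzyme that makes adenosine from AMP at the cell surface (chr6:86159302-86205509, plus strand), had 99 and 102 fragments with vehicle and 217 and 226 with gemcitabine. Both treated libraries exceeded both vehicle libraries by more than 2-fold. In CPM the means were 6.76 ± 0.0813 and 16.1 ± 0.679 (SD, n = 2 each), and the log2 fold change was 1.25 (SE 0.14, 95% interval 0.96 to 1.55, adjusted p = 7.13e-06). The fold was 2.38 in fragments and 3.28 in FPKM. Apart from library scaling, this gap is the lower apparent length stated another way, since that length is computed from both. In limma on log2(FPKM + 1) the value was 1.42 on the log2 scale (adjusted p = 0.0227), but the call was lost with log2(FPKM + 0.1) (1.67, adjusted p = 0.0517) and without the filter (1.42, adjusted p = 0.0553).

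PVR, which engages the activating receptor CD226 and the inhibitory receptor TIGIT (chr19:45147098-45169430, plus strand), had 1835 and 1923 fragments with vehicle and 1379 and 1381 with gemcitabine. It fell from 126.3 CPM in both vehicle libraries to 99.4 and 101 CPM, a log2 fold change of -0.33 (SE 0.065, 95% interval -0.47 to -0.19, adjusted p = 0.00106). At a fold of 0.795 it was not called. Its RNA overlaps that of other annotated genes: 35.7% of the 50-base words of PVR recur elsewhere, but only 1.29% in genes of the expression table. In limma fits on log2 FPKM the adjusted p of PVR was at least 0.1.

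The 2 MIC genes lie in the MHC region of chromosome 6 and are polymorphic stress-induced NKG2D ligands. MICA (chr6:31367561-31383092, plus strand) had 572 and 586 fragments with vehicle and 625 and 490 with gemcitabine, and the treated libraries lay on both sides of the vehicle ones. Its log2 fold change was 0.06 (SE 0.10, 95% interval -0.16 to 0.27, adjusted p = 0.683). MICB (chr6:31462658-31478901, plus strand) had 245 and 268 fragments with vehicle and 321 and 292 with gemcitabine. It rose from 17.2 ± 0.523 to 22.3 ± 1.20 CPM, a log2 fold change of 0.37 (SE 0.11, 95% interval 0.15 to 0.60, adjusted p = 0.0120), a fold of 1.29 that was not called. This change was lost in DESeq2 (adjusted p = 0.0952), in the limma fits on FPKM (0.0717 to 0.107), and without either vehicle library (0.134 and 0.0928). The 2 genes share 33 words of 50 bases, 2.5% of those of MICA and 1.39% of those of MICB, and each held 1 match to the heat shock element GAANNTTC upstream of its start, found in 3.87% of windows.

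The ULBP genes, with RAET1E, RAET1G and RAET1L, form a cluster of NKG2D ligand genes that spans 185.9 kb of chromosome 6. ULBP2 (chr6:150263150-150270371, plus strand) had 51 and 59 fragments with vehicle and 140 and 123 with gemcitabine. Both treated libraries were at least 2-fold above both vehicle libraries, at 10.1 and 9.03 CPM against 3.51 and 3.87 CPM. The log2 fold change was 1.37 (SE 0.18, 95% interval 0.98 to 1.76, adjusted p = 4.44e-05), the largest of the 10 genes, a fold of 2.58. Of the 50-base words of ULBP2, 32.6% recur in the neighbours RAET1L and RAET1G, so the assignment of its fragments is uncertain to that extent.

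ULBP1 (chr6:150285079-150294851, plus strand) had 54 and 57 fragments with vehicle and 41 and 58 with gemcitabine. The treated libraries straddled the vehicle ones, and the log2 fold change was -0.05 (SE 0.25, 95% interval -0.59 to 0.49, adjusted p = 0.896), a value whose sign turned with scaling to library totals. ULBP3 (chr6:150382189-150390257, minus strand) had 49 fragments in each vehicle library and 38 and 36 with gemcitabine. The log2 fold change was -0.29 (SE 0.25, 95% interval -0.83 to 0.25, adjusted p = 0.393), and the interval includes a fall to 0.561 of the vehicle level. The difference between the changes of ULBP2 and of ULBP1 or ULBP3 was not tested, though the interval of ULBP2 lies above those of both.

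The other genes of the cluster were read in the same fit. RAET1E had 260 and 248 fragments with vehicle and 451 and 452 with gemcitabine, and rose by 0.94 on the log2 scale (SE 0.098, adjusted p = 4.82e-06). RAET1G rose by 0.70 (SE 0.10, adjusted p = 9.94e-05), from 248 and 261 fragments to 365 and 400. RAET1L had 4 and 7 fragments against 14 and 10, a log2 fold change of 1.22 with SE 0.54 that did not pass (adjusted p = 0.0903). In order along the chromosome, RAET1E, RAET1G and ULBP2 were called, and ULBP1, RAET1L and ULBP3 were not.

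**Figure D4:**
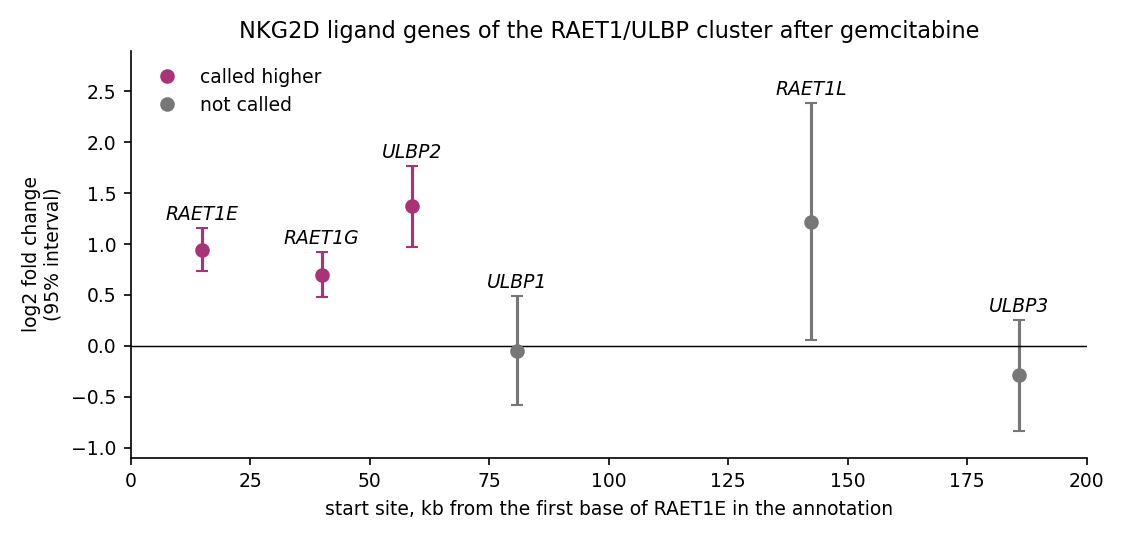
Log2 fold change with its 95% interval (edgeR) for the 6 NKG2D ligand genes of the chromosome 6 cluster, by the distance in kb of each start from the first base of RAET1E. The called genes sit at 14.9, 39.9 and 58.8 kb, the others at 80.8, 142.4 and 185.9 kb. RAET1L, not called, stands at 1.22 with at most 14 fragments in any library.

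The upstream windows of the 3 ULBP genes are printed to show how these neighbours differ where transcription starts. Each is the 250 bases before the start, 5′ to 3′ on the gene's strand in hg19. They are chr6:150262900-150263149 for ULBP2, chr6:150284829-150285078 for ULBP1 and chr6:150390258-150390507 for ULBP3 (minus strand). Capitals mark matches to the Sp1 GC box GGGCGG on either strand and to the E2F pattern TTTNNCGC.
ULBP2: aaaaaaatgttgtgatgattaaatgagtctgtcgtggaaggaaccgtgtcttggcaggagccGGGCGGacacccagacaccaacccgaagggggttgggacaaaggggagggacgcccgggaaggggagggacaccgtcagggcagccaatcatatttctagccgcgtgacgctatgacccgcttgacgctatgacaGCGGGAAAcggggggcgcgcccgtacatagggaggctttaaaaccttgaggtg
ULBP1: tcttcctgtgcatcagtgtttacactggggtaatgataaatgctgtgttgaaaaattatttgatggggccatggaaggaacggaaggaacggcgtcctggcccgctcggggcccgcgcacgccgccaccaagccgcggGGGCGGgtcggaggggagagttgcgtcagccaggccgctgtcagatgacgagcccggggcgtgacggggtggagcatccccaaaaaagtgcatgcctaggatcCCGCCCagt
ULBP3: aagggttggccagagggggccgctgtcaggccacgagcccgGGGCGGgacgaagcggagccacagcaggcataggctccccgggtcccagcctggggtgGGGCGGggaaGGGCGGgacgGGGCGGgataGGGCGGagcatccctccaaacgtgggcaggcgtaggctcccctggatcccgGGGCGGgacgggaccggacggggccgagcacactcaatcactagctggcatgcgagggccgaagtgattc
ULBP2 held 1 GC box and the only E2F match of the 10 genes, on the minus strand from 53 bases before the start, a pattern found in 8.57% of windows. ULBP1 held 2 GC boxes and ULBP3 held 6. A match is a string of letters and was not tested for binding.

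DNaseI peaks were available for 1 library per condition, 9605 with vehicle and 10695 with gemcitabine, so what follows has no replicate check and no test. Within 1 kb of an annotated coding start, 3 of the 10 genes had a peak with vehicle (MICA, NT5E and ULBP3), against 27.8% of 14154 tested genes. With gemcitabine 2 had one (NT5E and ULBP1), against 32.2%. The start of ULBP1 was covered by a peak only in the gemcitabine list (chr6:150284260-150285268), with a score of 132.36, above 90.3% of that list, although ULBP1 RNA did not pass the test. Conversely the start of ULBP3 was covered only in the vehicle list (chr6:150390054-150390948), with a score of 71.22. The MICA peak (chr6:31367279-31367786) was also in the vehicle list alone and was weak, its score of 51.12 above 4.21% of the list. It covered the start of another coding transcript and lay 3586 bases from the canonical start of MICA. ULBP2 had no peak nearer than 21110 bases in the gemcitabine list, and that one was the ULBP1 peak. No peak lay within 5 kb of a coding start of CD274, CD276, CD47, PVR or MICB in either list. The nearest vehicle peak was 347088 bases from a coding start of CD276 and 70140 from one of CD47, although both genes were well expressed. For its own analyses the paper added ENCODE peaks of PANC1 to raise sensitivity, and these were not used here. The lack of a peak in a list therefore does not show closed chromatin.

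In NT5E a peak in intron 3 of the canonical transcript was present in both lists, at chr6:86182028-86183282 with vehicle (score 76.69) and chr6:86182014-86183261 with gemcitabine (score 144.18). These scores stood above 57.6% and 92.8% of their own lists. It lay 0.9 kb from the start of another coding transcript, 929 and 915 bases respectively. A further peak in intron 1 (chr6:86168643-86169730, score 69.93) was in the gemcitabine list only. The central 250 bases of the intron 1 peak (chr6:86169062-86169311, plus strand) are printed because the peak lies in the called gene NT5E. Capitals mark its 1 match to the ISRE pattern, on the minus strand.
NT5E intron 1: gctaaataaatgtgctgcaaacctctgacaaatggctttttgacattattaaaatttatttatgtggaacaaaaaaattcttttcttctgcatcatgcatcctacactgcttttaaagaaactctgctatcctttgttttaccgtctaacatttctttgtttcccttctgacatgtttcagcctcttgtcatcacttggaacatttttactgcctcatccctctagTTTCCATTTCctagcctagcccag
No match to the patterns searched was found in the central 250 bases of the intron 3 peak.

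Around the 10 genes, 8 lists of related genes were read from the same fit: 72 of 92 genes were tested, 13 were called higher and 4 lower. The shares over all tested genes were 5.69% and 4.43% and the overall median was 0.0068 on the log2 scale. The lists were chosen with earlier results of these data known, so their counts cannot be read as an enrichment over those shares. Among the other checkpoint ligands, 12 were tested, with 2 called higher and 1 lower and a median log2 fold change of 0.66. Some of the tested genes, such as CEACAM1 and VTCN1, had at most 10 fragments in any library. VSIR, which encodes VISTA, had 197 and 189 fragments with vehicle and 447 and 439 with gemcitabine, and rose by 1.31 (SE 0.10, adjusted p = 3.97e-07). The butyrophilin BTN2A2 rose by 0.84 (adjusted p = 0.000227), while ICOSLG, the ligand of the co-stimulator ICOS, fell by 0.80 (adjusted p = 0.000351). HLA-E, a ligand of the inhibitory NK receptor NKG2A, rose by 0.54 (adjusted p = 0.000117) and NECTIN2, which shares receptors with PVR, rose by 0.40 (adjusted p = 0.000967), both under 1.5-fold. PDCD1LG2, the second PD-1 ligand, had 21 and 20 fragments against 51 and 67 (log2 fold change 1.63, adjusted p = 0.000491). It was not called, its FPKM difference being under 1, and is named after its values were seen. NECTIN3, named likewise, fell by 0.56 (adjusted p = 1.80e-05), under 1.5-fold, from 1977 and 2149 to 1259 and 1322 fragments. By the adjusted p alone 7 genes of this list were higher and 2 lower, beside 18.5% and 20.0% of all tested genes.

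Of the co-stimulatory and adhesion ligands, 6 were tested, 3 were called higher and the median log2 fold change was 1.06. This median includes genes with very few fragments. TNFSF4 had 3 and 4 with vehicle against 8 and 8 with gemcitabine (adjusted p = 0.126), and TNFSF15 had 0 and 0 against 8 and 6. CD70, the ligand of CD27, had 8 and 11 fragments with vehicle and 40 and 34 with gemcitabine and rose by 2.06 (SE 0.37, adjusted p = 0.000548). TNFSF9, the ligand of 4-1BB, rose by 0.79 (adjusted p = 0.000394) and the integrin ligand ICAM1 by 0.85 (adjusted p = 1.20e-05). The adhesion ligand CD58 rose by 0.40 (adjusted p = 0.00554), under 1.5-fold.

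Among 18 listed regulators of PD-L1, whether of its gene or of its protein, IRF1 alone was called. This interferon-induced factor had 126 and 168 fragments with vehicle and 391 and 345 with gemcitabine, and rose by 1.44 (SE 0.13, adjusted p = 1.29e-06). The median of the list was -0.04, and RELA, a subunit of NF-kB, stood at -0.07 (adjusted p = 0.433). The cell-cycle kinase CDK4 fell by 0.27 (adjusted p = 0.00431), under 1.5-fold. Among 10 tested genes of NKG2D ligand shedding and control, E2F1 was the only one called. It fell from 1487 and 1392 fragments to 667 and 727, by 0.93 (SE 0.081, adjusted p = 1.02e-06). ADAM9, a protease that cuts MIC proteins, stood at -0.12 (adjusted p = 0.218), and PDIA6, a disulfide isomerase that assists this cut, -0.02 (adjusted p = 0.825). The proteases ADAM10 and ADAM17, named after their values were seen, stood at -0.18 (adjusted p = 0.0734) and 0.18 (adjusted p = 0.0498). By the adjusted p alone 1 gene of this list was higher and 4 lower, beside 18.5% and 20.0% of all tested genes.

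In the list on CD47 control and signals for engulfment, 2 of 7 tested genes were called, both higher. ANXA1, a phosphatidylserine-binding protein displayed by dying cells, had 6240 and 6471 fragments with vehicle and 10182 and 9542 with gemcitabine and rose by 0.75 (SE 0.066, adjusted p = 1.12e-06). The scramblase XKR8 rose by 0.97 (adjusted p = 0.0104) from 43 and 28 to 69 and 60 fragments. CALR, whose protein calreticulin promotes engulfment at the surface, stood at 0.15 on that scale (adjusted p = 0.0820).

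In the adenosine list, 2 of 11 tested genes were called higher and 2 lower. The nucleoside transporters SLC29A1 and SLC29A2, which carry adenosine as well as gemcitabine into cells, fell by 0.64 (adjusted p = 5.93e-06) and 0.92 (adjusted p = 5.70e-06). The phosphatase ALPP, which can also release adenosine, rose by 1.69 (SE 0.27, adjusted p = 0.000170), and ENTPD2, which acts upstream of NT5E, by 0.83 (adjusted p = 0.0282). ADK, which phosphorylates adenosine to AMP, stood at -0.09 (adjusted p = 0.352) and the cytosolic nucleotidase NT5C2 at 0.15 (adjusted p = 0.164). ENTPD1 (CD39), the usual partner of CD73, had 289 and 324 fragments with vehicle and 142 and 139 with gemcitabine. It fell by 1.01 (adjusted p = 1.36e-05) without meeting every criterion of the call, and is named after its values were seen. In FPKM the fall of ENTPD1 was smaller, from 1.47 and 1.52 with vehicle to 0.870 and 1.37 with gemcitabine. Its estimated counts were not whole numbers. Of 5 tested partners of PVR and NK adhesion genes, NECTIN4 was called higher, with 3 and 0 fragments against 14 and 24, and the NK ligand gene NCR3LG1 fell by 0.64 (adjusted p = 0.000267) without being called. The adhesion molecule CADM1 stood at -0.15 (adjusted p = 0.286).

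**Figure D5:**
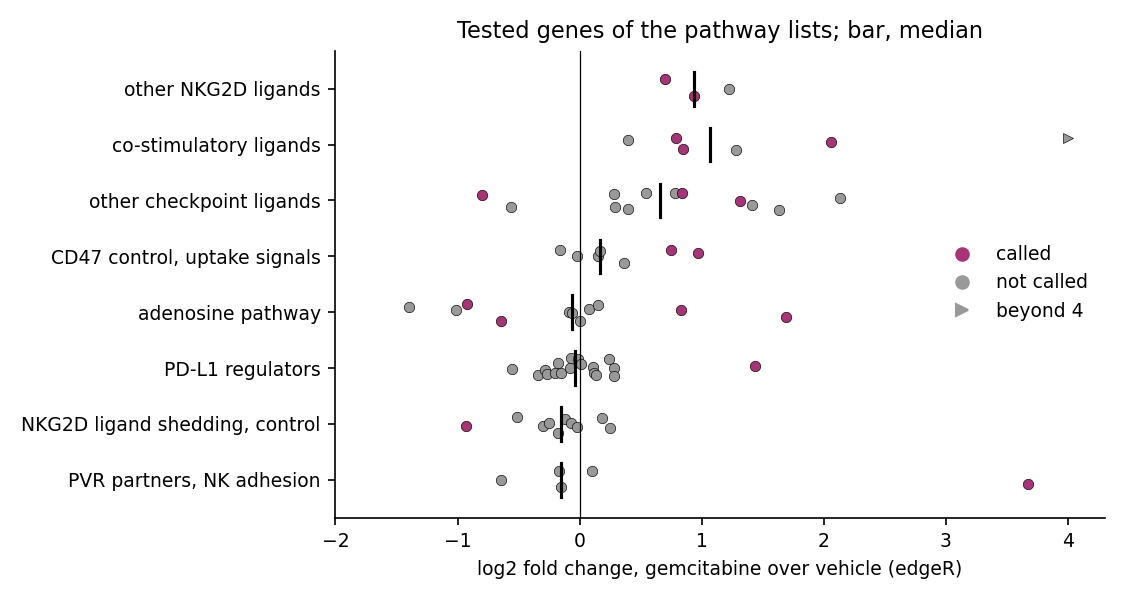
Log2 fold change of each tested gene (points) in the 8 lists of related genes, edgeR on fragment counts, coloured by call, with a bar at each list's median; a triangle marks a gene beyond 4. The 6 co-stimulatory ligands lie above 0 (median 1.06), though TNFSF4 and TNFSF15 had at most 8 fragments in any library. The PD-L1 regulators are spread around 0 (median -0.04). The point near 3.67 is NECTIN4, whose fitted value depends on its near-zero vehicle counts.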

How the data were processed

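PANC1 cells were profiled by RNA-seq (2 vehicle and 2 gemcitabine libraries) and DNaseI-seq (1 library each). Per the labels, the authors aligned reads to hg19 and used TopHat2 2.0.8 and Cuffdiff 2.0.2. The deposited expression table holds, per gene and library, an estimated count of fragments and an FPKM value, both made by the authors. Of the estimated counts, 86.8% were whole, and the rest were rounded. The deposited peak lists give 1 score per peak, whose scale is not given in the sources used here. 2 further columns of per-library values were not used. No test of the authors was used. The libraries are numbered in the table but the labels' replicate numbers could not be matched to these.

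Counts were scaled by TMM and tested with edgeR 4.0.16 (R 4.3.3) after a minimum of 10 fragments over the 4 libraries. Alternatives used DESeq2 1.42.0 and limma 3.58.1. The code was tested on simulated data. Replicates are described as biological in the study's methods. The common biological coefficient of variation was 0.0522. Annotation was GENCODE lifted to hg19, in a later release than that of the authors' Cuffdiff run, and 50-base words measured shared sequence. Apparent length was computed for genes with a mean of at least 50 fragments. Intervals are 95% and unadjusted. Named genes were the 10 genes, each called gene of the lists, and the 2 of highest FPKM in each list. Others were named outside this rule, as markers, as cluster neighbours, for low counts or after their values were seen. Members and lists were chosen with earlier results of these data known. One DNaseI record with a negative start was dropped.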

Additional observations from a re-analysis of the deposited data

How the results depend on the processing

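The count of called genes, 1503 in all (845 higher and 658 lower), became 5725 by the adjusted p alone (2750 higher, 2975 lower), 113 with limma on log2(FPKM + 0.1) and 296 with limma on log2(FPKM + 1) without a filter. With library totals in place of TMM, the split was 1164 higher and 417 lower, and all genes had a median of 0.117 on the log2 scale. The number called of the 10 genes, 2, became 4, 1 and 1 under the first 3 of these, and the 17 called genes of the lists became 39, 3 and 6. With limma on log2(FPKM + 0.1) and without a filter NT5E had log2 fold changes of 1.67 and 1.42 (adjusted p = 0.0517 and 0.0553), and in limma on log2(FPKM + 1) with the filter 1.42 (adjusted p = 0.0227). With a minimum score of 100, 0 of the 10 genes had a vehicle peak at a start, and with the start inside the peak 1 had a gemcitabine peak. The log2 fold change of CD274 turned from -0.37 to 0.42, 0.49 and 0.42 in limma on log2(FPKM + 1), on log2(FPKM + 0.1) and without a filter. That of ULBP1 turned from -0.05 to 0.06 with library totals and to 0.03, 0.04 and 0.03 in the same limma fits. The cause was not tested. Leaving out each library in turn gave 1268 to 1694 called genes, 2 to 2 of the 10 genes and 14 to 19 of the lists, and log2 fold changes from -0.58 to -0.08 for CD274, -0.33 to 0.19 for ULBP1 and -0.11 to 0.21 for MICA. MICA was at -0.11 without the first gemcitabine library and at 0.21 without the second (adjusted p = 0.0444). Of the other fold changes, NT5E stayed between 1.21 and 1.30 and ULBP2 between 1.29 and 1.45 on leaving out a library. No paired analysis was possible because nothing matches the table's library numbers to the labels' replicates. With 2 libraries per condition and about 50 fragments, ULBP1 and ULBP3 have intervals of more than 1 on the log2 scale.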

Other observations

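Among the markers used to check the cells, the ductal keratin gene KRT19 had 45 fragments in each vehicle library and 94 and 88 with gemcitabine, and rose by 1.13 on the log2 scale (edgeR's quasi-likelihood test, adjusted p = 0.000645). LUM, a matrix proteoglycan gene of fibroblasts, rose by 0.77 (adjusted p = 0.00374), from 67 and 71 to 116 and 102 fragments, while COL1A1, at 56723 or more fragments in every library, stood at 0.03 on that scale (adjusted p = 0.740) and COL1A2 had at most 3 fragments. KLRK1, which encodes NKG2D itself, was assigned 31.9 and 38.1 fragments with vehicle and 48.2 and 54.5 with gemcitabine (log2 fold change 0.67, adjusted p = 0.0535). These counts are not whole numbers, whereas 86.8% of all counts were, and its vehicle FPKM values differed widely, at 0.396 and 1.62. Sequence shared with other genes was not measured for KLRK1, so expression of the receptor by these cells is not established.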
